A study of Mus musculus with 6 samples.

Results

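The genes described here are the ligand interferon beta, the chains of the receptors through which type I, type II and IL-10 family cytokines are sensed, and the Janus kinases bound to those chains. They are 9 listed genes of the 36137 genes to which transcripts of the series could be assigned: the ligand Ifnb1, the receptor chains Ifnar1, Ifnar2, Ifngr1, Ifngr2 and Il10rb, and the kinases Jak1, Jak2 and Tyk2. RNA was sequenced from mouse bone marrow–derived macrophages (BMDMs), macrophages grown from marrow precursors, in 3 WT and 3 Drp1 KO libraries. WT cells came from LysM-Cre+/- Drp1+/+ mice and Drp1 KO cells from LysM-Cre+/- Drp1 fl/fl mice, so both groups carry the Cre recombinase, which the lysozyme M promoter drives in myeloid cells. The mice were of both sexes and 8 to 12 weeks old, and marrow of 2 mice per genotype was pooled. All 6 cultures were differentiated for 7 days with medium of L929 cells and then held for 8 hours in hypoxia with serum starvation (HSS), the study's culture model of ischemia. No library without HSS was analysed here. The question put to these genes was whether the ligand was detected, and whether the receptors and kinases were at other levels in the Drp1 KO genotype, in which Dnm1l, the gene for the mitochondrial fission GTPase DRP1, is the target.

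Type I interferons, which include interferon beta and the interferon alphas, bind a receptor made of the chains IFNAR1 and IFNAR2. TYK2 is bound to IFNAR1 and JAK1 to IFNAR2, and after ligand binding the kinases phosphorylate STAT factors, which turn on interferon-stimulated genes. Interferon gamma signals through IFNGR1, which carries JAK1, and IFNGR2, which carries JAK2, and IL10RB is the TYK2-bound chain shared by the receptors of IL-10, IL-22 and the lambda interferons. Macrophages are known both as responders to interferons and, once a nucleic acid sensor is triggered, as a source of interferon beta.

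Levels are given as CPM, the estimated counts of a gene's transcripts scaled to 1000000 counts of normalized library size, where libraries are compared for the same gene. Where genes are compared with each other the deposited TPM, which accounts for transcript length, is used. Differences between groups are log2 fold changes of Drp1 KO over WT, and adjusted p-values come from edgeR's quasi-likelihood test with Benjamini-Hochberg adjustment over the 18506 genes tested. That test called 621 genes, 3.36% of those tested. Whether each library came from its own pool of marrow is not given in the sources used here, so p-values measure the spread between these libraries, which may in part be technical. For a single value, the smallest two-sided p that an exact permutation of 3 and 3 libraries can reach is 0.1.

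The libraries held 23389488 to 32231206 estimated reads, and 3 counts in a library, taken as the floor of detection, lay between 0.0916 and 0.136 CPM. The targeted gene, Dnm1l, was at 72.7, 69.9 and 75.1 CPM in WT and 58.7, 60.7 and 66.3 CPM in Drp1 KO libraries. Every Drp1 KO library was thus below every WT library, as for 10.3% of all genes tested. The log2 fold change of -0.23 did not pass (standard error, SE, 0.0921, adjusted p = 0.248, edgeR). This total is taken over the whole gene and does not by itself show a loss of DRP1 in these libraries, and the deleted part was not analysed here. The paper reports from immunoblots that DRP1 protein was deleted in BMDMs of the knockout mice. The 9 macrophage markers were all detected and summed to 13510 to 14920 CPM in WT and 12090 to 14510 CPM in Drp1 KO libraries. In bulk RNA, fewer cells of a type and less RNA per cell cannot be told apart. Neutrophil markers summed to 7.50 to 22.2 CPM in WT and 21.3 to 49.4 CPM in Drp1 KO libraries, with Ly6g at 0 in each library. The 12 T and NK cell markers summed to 312 to 329 CPM in WT and 128 to 253 CPM in Drp1 KO libraries, of which Cd4 alone took 303 to 319 CPM and 119 to 245 CPM, and Ncr1 was at 0. Summed B cell (61.4 to 69.3 and 59.4 to 84.7 CPM), fibroblast (14.0 to 21.6 and 13.7 to 16.8 CPM) and plasmacytoid dendritic cell markers (101 to 120 and 106 to 136 CPM) overlapped between WT and Drp1 KO libraries, with Klk1 and Cd209d at 0 in each library. Among the marker genes 3 passed the test, all macrophage markers, of which Fcgr1 was higher (log2 fold change 1.34) and Csf1r (-0.52) and Mertk (-0.52) were lower. Of the tested genes of the other 5 marker lists edgeR called 0, with 4 neutrophil, 1 T or NK cell, 1 B cell and 1 plasmacytoid dendritic cell marker at an unadjusted p under 0.05, while DESeq2 called 2 neutrophil, 1 T or NK cell and 1 plasmacytoid dendritic cell marker and limma-voom 1 T or NK cell marker. The log2 fold changes of the genes with the smallest p were 1.38, 1.30 and 1.32 for S100a8, S100a9 and Ngp of neutrophils, -0.90, 0.45 and -0.54 for Cd4, Cd8a and Cd3g of T cells and 0.56, -0.20 and 0.40 for Cd79b, Cd22 and Ighm of B cells. They were 1.45, 0.13 and 0.21 for Cox6a2, Tcf4 and Ccr9 of plasmacytoid dendritic cells and -0.24 for Thy1 of fibroblasts. With the replicate number as a block, 4 neutrophil markers, Cd4 and Cox6a2 passed as well, while of the macrophage markers 1, Fcgr1, remained called when either library 2 or library 3 of a genotype was dropped. The part of these marker differences in the results below was not tested.

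The annotated transcripts of Ifnar2 end in different ways, and the ends are shown because nearly all reads of this gene were assigned to a short form. Each sequence gives, from the reference genome GRCm39, the last 30 coding bases that the forms share, in lower case, followed in capitals by the bases that differ. For the long form Ifnar2-201 the capitals are the first coding bases of the next exon, which starts at 91196106 on chromosome 16 and leads on to the transmembrane part and the tail that binds JAK1. For the short forms Ifnar2-203 and Ifnar2-202 the capitals run to the stop codon.
Ifnar2-201: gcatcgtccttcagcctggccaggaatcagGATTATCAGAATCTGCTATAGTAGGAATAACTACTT
Ifnar2-203: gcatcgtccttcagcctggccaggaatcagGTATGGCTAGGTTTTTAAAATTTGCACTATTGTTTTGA
Ifnar2-202: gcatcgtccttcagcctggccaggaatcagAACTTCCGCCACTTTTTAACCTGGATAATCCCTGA
The 3 forms share 709 coding bases. In Ifnar2-203 the exon that begins at 91190645 (chromosome 16, plus strand) does not stop at 91190801 but reads on for 127 bases into the following intron, where the stop codon ends at 91190839, and this exon is the last of its 7. Ifnar2-202 splices from 91190801 to an exon that starts at 91200598. The long form thus encodes 513 codons before its stop, and the short forms 248 and 247. Short mouse IFNAR2 lacks a membrane anchor and is known as the soluble receptor.

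Ifnb1 (ENSMUSG00000048806, a gene without introns on chromosome 4, 88440262 to 88441011, minus strand) was at the limit of detection. It had 0 counts in 5 of the 6 libraries, the 3 WT libraries and Drp1 KO libraries 1 and 2, and 5 counts in Drp1 KO library 3. The 5 counts correspond to 0.153 CPM, with an exact Poisson 95% interval of 0.0498 to 0.358 CPM that covers counting error only. In the 5 libraries at 0, the floor allows a level of up to 0.0916 to 0.136 CPM, inside that interval. No difference in Ifnb1 between Drp1 KO and WT BMDMs was therefore detectable at this depth. With 1 library above 0 a permutation test cannot tell the groups apart, and with 5 counts in total the gene fell below the minimum of 10 counts set for edgeR's test.

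Because Ifnb1 was nearly silent, its control region is given for orientation. The 120 bases from 200 to 81 before its annotated start (GRCm39, chr4:88441092-88441211, minus strand) are shown with matches to the letters AANNGAAA, a core of sites bound by interferon regulatory factors, and GGAAATTCC, which is found in sites of NF-κB, in capitals:
Ifnb1 promoter: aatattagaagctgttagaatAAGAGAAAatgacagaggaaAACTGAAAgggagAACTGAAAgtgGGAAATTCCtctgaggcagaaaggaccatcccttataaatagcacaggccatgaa
The first motif matched 3 times and the second once, with no overlap. Among 21770 promoters of protein-coding genes, from 250 bases before to 50 after the annotated start and on both strands, 24.8% held AANNGAAA, and of the 9 genes Ifnb1 and Jak2 did. GGAAATTCC was in 0.34% of all promoters and, of the 9, in that of Ifnb1 alone, at position -135. The STAT motif TTCNNNGAA was in 8.81% of all promoters and in those of Ifnar2 and Jak2, at positions -214 and -138. These are matches of letters in this window and do not show that a factor binds.

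The other ligands of these cytokine families were also rare. Of 24 other interferon and IL-10 family ligand genes, 15 had 0 counts in each library, and 4 had more than 3 counts in a library, Il10, Ifnk, Ifnz and Ifna16. Il10, whose product binds IL10RA and IL10RB, had 27, 33 and 25 counts in WT and 30, 59 and 77 counts in Drp1 KO libraries. Its log2 fold change was 0.78 (SE 0.306, unadjusted p = 0.0291, adjusted p = 0.236, edgeR). By CPM the groups did not overlap, with WT at 0.852 to 1.24 and Drp1 KO at 1.36 to 2.36. Of all genes tested, 11.7% were higher in Drp1 KO with no overlap in CPM. By TPM the groups of Il10 did overlap, since WT library 2 (1.737) lay just above Drp1 KO library 1 (1.73). Ifnk, a keratinocyte interferon, had 10 to 12 counts in WT and 6 to 19 counts in Drp1 KO libraries. Ifna16 reached 4.03 counts and Ifnz 11.9 counts, but the interferon alpha genes are near-identical copies and kallisto divides the reads they share, so that values of single genes are uncertain. The 13 interferon alpha genes together had 6.07 counts over the WT libraries and 13.1 counts over the Drp1 KO libraries. Interferon gamma, Ifng, had at most 1 count in a library. Of the 4 ligand genes with enough counts for the test, edgeR and limma-voom each called 0, and 1, Il10, had an unadjusted p under 0.05 with edgeR. DESeq2 gave an adjusted p for Il10 alone of the 4, and it did not pass (adjusted p = 0.224, DESeq2).

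In contrast to the ligand, each receptor chain and kinase was well detected in the 6 libraries. Ifnar2 had the highest TPM, at 389 to 569, and Il10rb followed at 186 to 215. Ifngr1 was at 104 to 148 and Jak1 at 87.2 to 116 TPM, ranges that overlapped. Ifnar1 at 52.3 to 72.3 and Ifngr2 at 47.0 to 56.3 TPM overlapped as well, although Ifnar1 was the higher of this pair in 6 of 6 libraries. Jak2 lay at 24.3 to 30.99 TPM, and Tyk2 was the lowest of the 8 at 12.7 to 16.6 TPM. Each other neighbour in this order was separated from the next by a gap between their ranges over the 6 libraries. Several transcripts are shorter in the deposited files than in the annotation used here, such as Il10rb-201 with 1850 against 3839 bases, and TPM depends on that length.

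**Figure D1:**
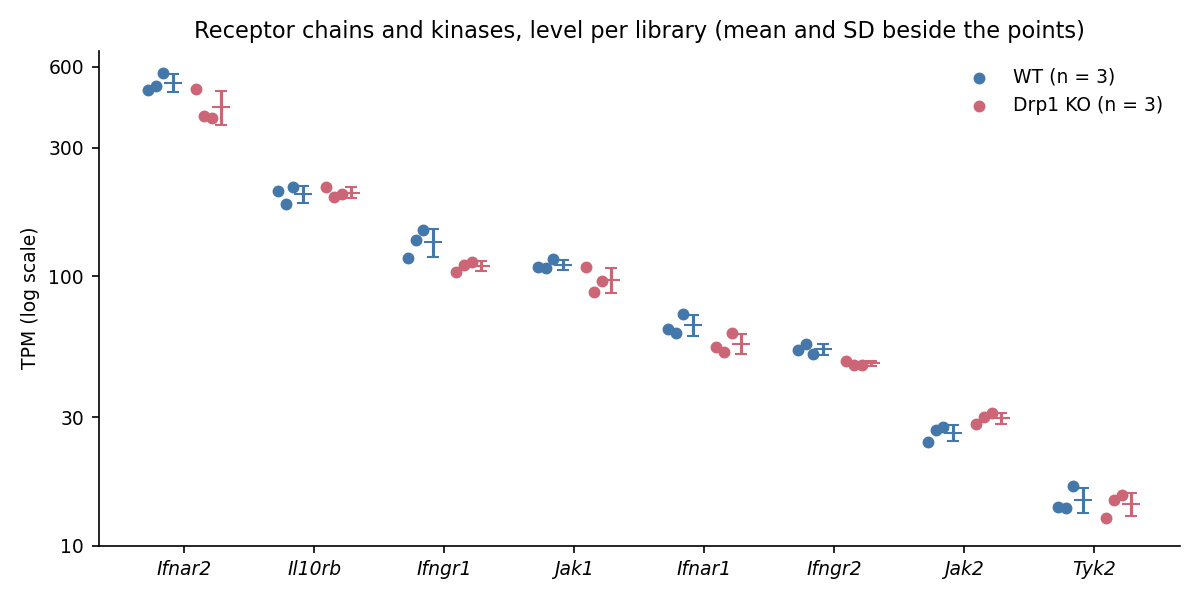
TPM of the 5 receptor chains and 3 kinases on a log axis, by library, for WT (blue, n = 3) and Drp1 KO (red, n = 3) BMDMs after HSS, with the mean and SD beside each group. The genes run from Ifnar2 at 389 to 569 TPM down to Tyk2 at 12.7 to 16.6 TPM, and the range across genes is far wider than that between groups. Ifnb1 is not drawn because it was at 0 in 5 of 6 libraries.

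Without the replicate block no receptor or kinase gene passed the test between the genotypes. Of the 9 genes 8 were tested, and edgeR, DESeq2 and limma-voom each called 0 of them at an adjusted p under 0.05, where edgeR called 3.36% of all genes, so that 0 of 8 is near the share over all genes. With the replicate number as a block 1 of the 8, Jak2, passed (adjusted p = 0.0460, edgeR), where 12.0% of all genes did. With edgeR 1 of the 8, Jak2, had an unadjusted p under 0.05, where 16.4% of all genes did. With DESeq2 and with limma-voom it was 2 of the 8. By the study's criteria, a fold change over a threshold of 0.32 on the log2 scale with an unadjusted p under 0.05, 0 of the 8 passed and 12.7% of all genes did. The log2 fold changes were small, with a median absolute value of 0.14 among the 8 and 0.23 among all genes tested. Of the 8, 5 had lower and 3 had higher estimates in Drp1 KO BMDMs. Their median was -0.11, where that of all genes tested was 0.0046. The 95% intervals of 2 genes, Ifngr2 and Il10rb, lay within that threshold either way, and those of the other 6 reached beyond it on the side of their estimate. Across the 8 the intervals ran from -0.47 to 0.46.

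**Figure D2:**
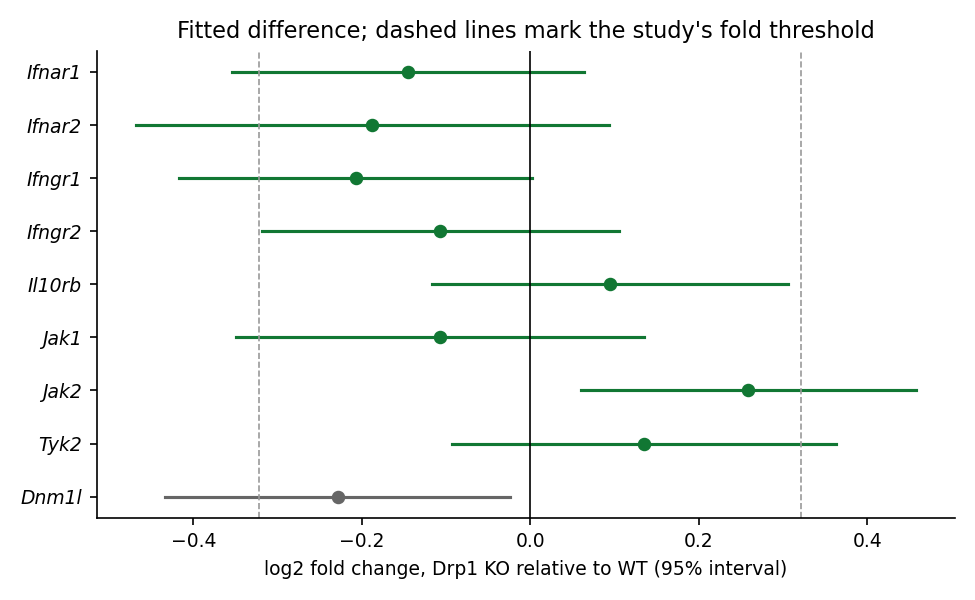
Fitted log2 fold change of Drp1 KO relative to WT (points, edgeR) with 95% intervals (lines) for the 8 genes tested and, in grey, the targeted gene Dnm1l; dashed lines mark the study's fold threshold of 0.32 either way. The estimates of the 8 genes lie between -0.21 and 0.26, and of these only the interval of Jak2 (0.06 to 0.46) leaves out 0.

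Among the type I receptor chains, Ifnar1 (ENSMUSG00000022967, chromosome 16, 91281942 to 91305789), the TYK2-bound chain, was at 177, 159.5 and 181 CPM in WT and 157, 147 and 163.5 CPM in Drp1 KO libraries. The groups overlapped through WT library 2, and the log2 fold change was -0.15 (SE 0.0939, adjusted p = 0.511, edgeR). Within libraries of the same number, Drp1 KO was below WT in 3 of 3 pairs, as for 22.1% of all genes tested.
Ifnar2 (ENSMUSG00000022971, chromosome 16, 91169618 to 91202723), the JAK1-bound chain, was at 357, 364 and 380.2 CPM in WT and 390.2, 294 and 283 CPM in Drp1 KO libraries. Drp1 KO library 1 was the highest of all 6 and Drp1 KO libraries 2 and 3 were the lowest, so the spread within this group, an SD of 58.9 CPM against 11.9 CPM in WT, exceeded the difference between the means. The log2 fold change was -0.19 (SE 0.127, adjusted p = 0.533, edgeR). Without Drp1 KO library 1 it was -0.36, which was past the study's criteria but not past an adjusted p of 0.05 (adjusted p = 0.0637).

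The short forms accounted for nearly all Ifnar2 RNA as estimated. Ifnar2-203 had 7508, 8752 and 10078 counts in WT and 7828, 8552 and 8285 counts in Drp1 KO libraries. The long form Ifnar2-201, the form of the receptor that can signal, had 602, 785 and 898 counts in WT and 561, 765 and 801 counts in Drp1 KO libraries. Ifnar2-202 had 31 to 61 counts in each library, and the partial models Ifnar2-204 and Ifnar2-205 together 115 to 236. Per length, Ifnar2-203 stood at 501 ± 38.2 TPM in WT and 405 ± 59.8 TPM in Drp1 KO BMDMs (SD, n = 3 each), and the long form at 12.6 ± 1.47 TPM and 10.3 ± 0.481 TPM. The short forms were thus 39.9 ± 2.17 times the long form in WT and 39.6 ± 5.75 times in Drp1 KO BMDMs, which did not differ beyond the spread (exact permutation test, n = 3 and 3, two-sided p = 0.8). Their share of the gene's counts was 90.9% ± 0.374 in WT and 90.4% ± 1.12 in Drp1 KO BMDMs (exact permutation test, n = 3 and 3, two-sided p = 0.5, adjusted p = 0.75 over 9 shares). As a share of TPM it ranged from 95.7% to 95.9% over the WT and from 94.1% to 95.4% over the Drp1 KO libraries, without overlap (exact permutation test, n = 3 and 3, two-sided p = 0.1, adjusted p = 0.225 over 9 shares). In CPM the long form was lower in each Drp1 KO library than in each WT library, at 28.7 ± 2.41 and 24.5 ± 1.06 CPM (exact permutation test, n = 3 and 3, two-sided p = 0.1, the smallest possible). The comparison of the forms by CPM and by their ratio was chosen after their values were seen.

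The split between the forms is kallisto's estimate and rests on few bases. Ifnar2-203 has 126 stretches of 31 bases that occur in no other transcript of the gene and in no other gene, and the long form has 156. Ifnar2-203 is 1099 bases long in the deposited files and the long form 3047, so that part of the gap in TPM comes from length, while the counts themselves differed by 10.3 to 14.0 times.

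**Figure D3:**
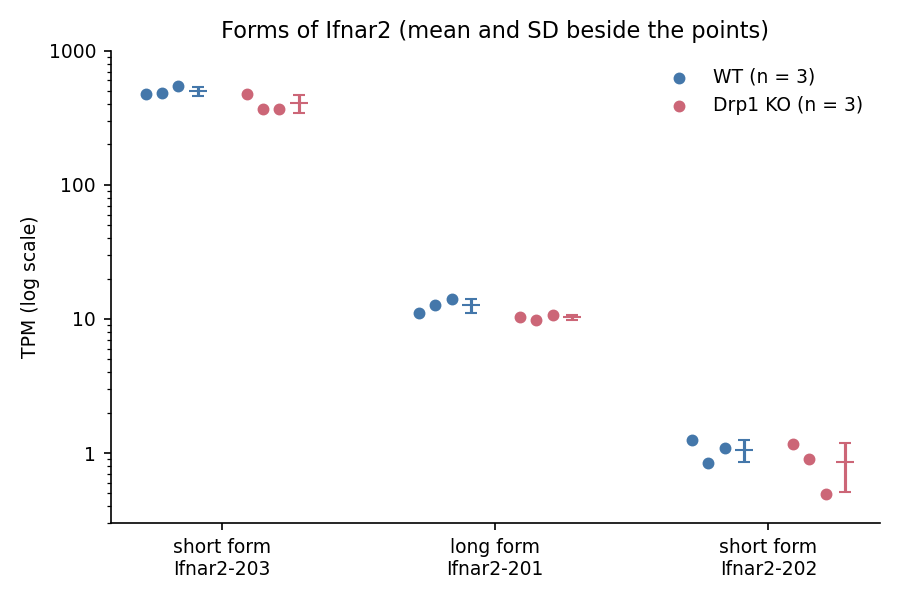
TPM of the 3 forms of Ifnar2 on a log axis, by library, for WT (blue, n = 3) and Drp1 KO (red, n = 3) BMDMs, with the mean and SD beside each group. In each library the short form Ifnar2-203 (370.2 to 544.5 TPM) stands above the long form Ifnar2-201 (9.74 to 14.1 TPM), and the short form Ifnar2-202 lies at 0.492 to 1.24 TPM.

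Counted over all its transcripts, Ifnar1 stood at 0.126 ± 0.00472 of the TPM of Ifnar2 in WT and at 0.134 ± 0.0242 in Drp1 KO BMDMs (exact permutation test of the log2 ratio, n = 3 and 3, two-sided p = 0.7, adjusted p = 0.7 over 4 ratios). Set against the long form of Ifnar2 alone, a comparison added after the values were seen, the order of the chains turned. Ifnar1 was then 5.23 ± 0.444 times the long form in WT and 5.47 ± 0.251 times in Drp1 KO BMDMs, which did not differ beyond the spread (exact permutation test, n = 3 and 3, two-sided p = 0.4).

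Of the interferon gamma receptor chains, Ifngr1 (ENSMUSG00000020009, chromosome 10, 19467697 to 19485977), the ligand-binding chain, was at 157, 179 and 183 CPM in WT and 155, 148 and 146 CPM in Drp1 KO libraries. The groups did not overlap, though WT library 1 and Drp1 KO library 1 differed by under 2 CPM. Of the 8 genes tested 2, Ifngr1 and Jak2, had CPM ranges that did not overlap between the groups, where 21.9% of all genes tested did not. The log2 fold change of Ifngr1 was -0.21 (SE 0.0944, unadjusted p = 0.0523, adjusted p = 0.311, edgeR).
Ifngr2 (ENSMUSG00000022965, chromosome 16, 91343906 to 91362512), the signalling chain, was at 145, 154 and 131 CPM in WT and 139.8, 131.5 and 128 CPM in Drp1 KO libraries. The groups overlapped, with a log2 fold change of -0.11 (SE 0.0954, adjusted p = 0.667, edgeR). In TPM, Ifngr1 stood at 2.50 ± 0.348 times Ifngr2 in WT and 2.30 ± 0.134 times in Drp1 KO BMDMs (exact permutation test of the log2 ratio, n = 3 and 3, two-sided p = 0.4, adjusted p = 0.533 over 4 ratios).

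Il10rb (ENSMUSG00000022969, chromosome 16, 91203012 to 91224600) was at 265, 239 and 261 CPM in WT and 294, 265 and 258 CPM in Drp1 KO libraries. It was the only receptor chain of the 5 with a positive log2 fold change, 0.09 (SE 0.0952, adjusted p = 0.712, edgeR), and the groups overlapped. Ifnar2, Il10rb, Ifnar1 and Ifngr2 follow each other in this order on the plus strand of chromosome 16, whereas Ifngr1 lies on chromosome 10.

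Another gene model runs through the first 2 of that cluster. Gm21970 (ENSMUSG00000093701, chromosome 16, 91180749 to 91222722) overlaps Ifnar2 and Il10rb on the same strand and shares 19.9% of the 31-base stretches of Ifnar2 and 29.5% of those of Il10rb, so reads of the 3 genes cannot be fully told apart. It was assigned 1.71, 0 and 0 counts in WT and 74.0, 58.6 and 24.0 counts in Drp1 KO libraries. All WT libraries were at or below the floor of 3 counts and all Drp1 KO libraries above it, at 1.97 ± 1.32 CPM (SD, n = 3). Against the mean floor per WT library, the assigned counts of Gm21970 were at least 17.1-fold higher in Drp1 KO BMDMs, and at least 11.1-fold without Drp1 KO library 1, the highest. As a bound on the RNA itself this holds only as far as kallisto divided the shared reads correctly. The difference in assigned counts passed edgeR's test (adjusted p = 0.00699). The call was lost with limma-voom (adjusted p = 0.0600) and without WT library 2 (adjusted p = 0.0532). Its counts came to 0.307% of those of Ifnar2 and Il10rb in the Drp1 KO libraries. The gene was singled out after its values were seen.

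**Figure D4:**
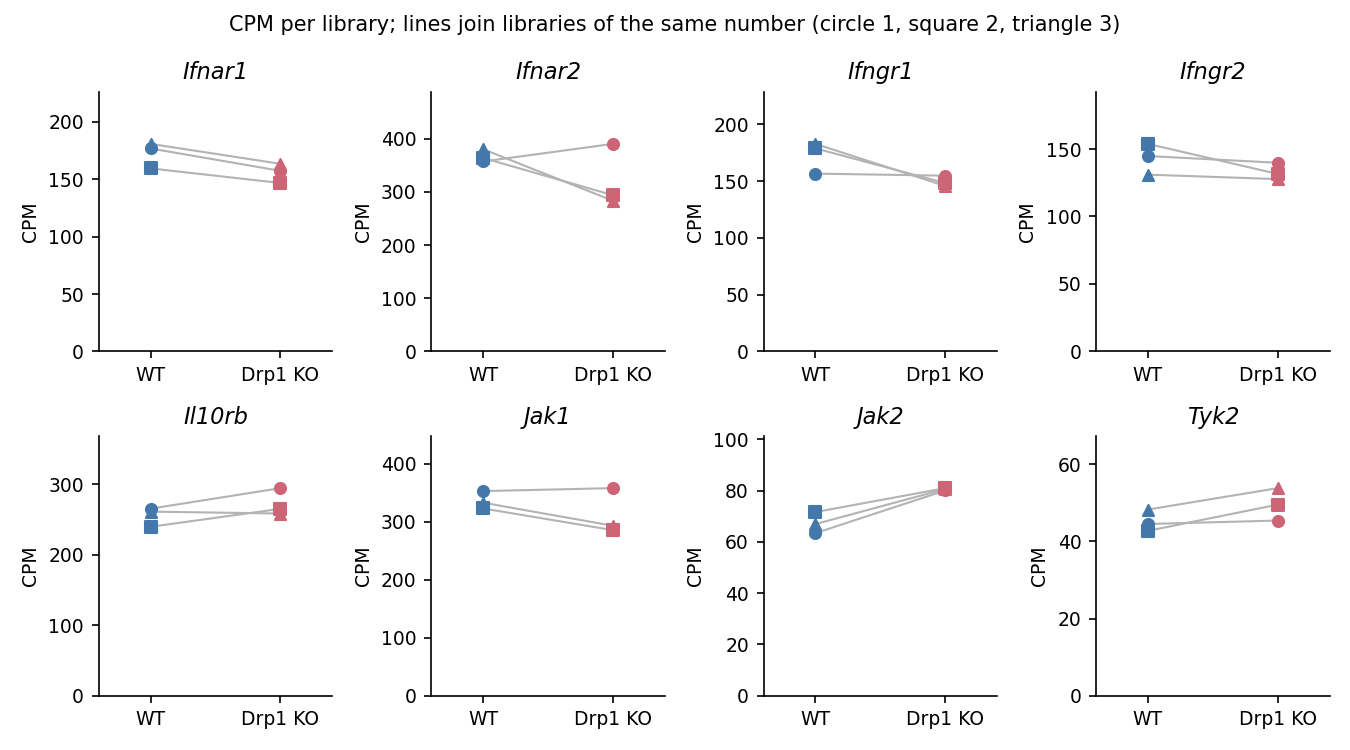
CPM of the 8 genes by library, on axes that start at 0; lines join the WT and Drp1 KO library with the same number. Lines for Ifnar1, Ifngr1 and Ifngr2 go down in 3 of 3 pairs and those for Jak2 and Tyk2 go up in 3 of 3 pairs. Over all genes tested, 22.1% went down and 23.7% went up in 3 of 3 pairs. Pair 1 (circles) of Ifnar2 and Jak1 goes up and pairs 2 and 3 go down.

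Among the kinases, Jak1 (ENSMUSG00000028530, chromosome 4, 101008838 to 101122487), which serves the receptors of both interferon types, was at 352.5, 323 and 332.5 CPM in WT and 358, 285 and 293 CPM in Drp1 KO libraries. As for Ifnar2, Drp1 KO library 1 was the highest of all 6 and Drp1 KO libraries 2 and 3 were the lowest. The log2 fold change was -0.11 (SE 0.109, adjusted p = 0.716, edgeR). It ran from -0.23 without Drp1 KO library 1 to -0.042 without Drp1 KO library 2. Jak1 shares 11.4% of its 31-base stretches with the neighbouring gene Raver2, which had 49 to 150 counts per library.
Tyk2 (ENSMUSG00000032175, chromosome 9, 21015363 to 21042689), the kinase of IFNAR1 and IL10RB, was at 44.5, 42.7 and 48.2 CPM in WT and 45.4, 49.5 and 53.8 CPM in Drp1 KO libraries. The groups overlapped, and the log2 fold change was 0.14 (SE 0.102, adjusted p = 0.596, edgeR). It was 0.03 with length-scaled counts, and in TPM the means were 14.8 ± 1.57 in WT and 14.3 ± 1.43 in Drp1 KO BMDMs.

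Jak2 (ENSMUSG00000024789, chromosome 19, 29228677 to 29290505), the kinase of IFNGR2 and of many growth factor receptors, was the one with the smallest p. It was at 63.4, 71.65 and 66.95 CPM in WT and 80.1, 80.98 and 80.7 CPM in Drp1 KO libraries. The Drp1 KO libraries were nearly level and each lay above each WT library. The log2 fold change was 0.26 (95% interval 0.06 to 0.46, SE 0.0895), a 1.20-fold difference, with an unadjusted p of 0.0159 and an adjusted p of 0.172 (edgeR). In the fit with the replicate number as a block, the same log2 fold change had a SE of 0.0743 and passed (adjusted p = 0.0460, edgeR). Jak2 was 1 of the 8 genes to pass, while 12.0% of all genes passed in that fit. Whether the replicate numbers pair the libraries is not settled. Over the 15 alternative settings the adjusted p of Jak2 ran from 0.0460 to 0.432, and the log2 fold change stayed between 0.22 and 0.29.

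Relative to Jak1, Jak2 stood at 0.2245, 0.251 and 0.238 of its TPM in WT and at 0.261, 0.345 and 0.324 in Drp1 KO libraries. The groups did not overlap, and the difference of 0.37 on the log2 scale had the smallest p this test allows (exact permutation test, n = 3 and 3, two-sided p = 0.1, adjusted p = 0.4 over 4 ratios). Tyk2 relative to Jak1 was 0.134 ± 0.0084 in WT and 0.149 ± 0.0279 in Drp1 KO BMDMs, and the groups overlapped (exact permutation test of the log2 ratio, n = 3 and 3, two-sided p = 0.4, adjusted p = 0.533).

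The 3 genes with the profile most like that of Jak2 over the 6 libraries, by Pearson's r of log2 CPM among 12248 genes, were Clec4b1 (r = 0.994), F11r (0.992) and Tmem60 (0.9895). For Ifnar1 they were Tubb2a (0.978), Vmn1r13 (0.976) and Palld (0.9655). The points share 6 libraries, their genotypes and their normalization; no test was run on these values.

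Most members were read from a single transcript. The share of counts on the leading transcript was 98.5% to 99.4% for Jak1-201, 98.6% to 99.7% for Ifngr2-201, 93.7% to 96.7% for Il10rb-201, 90.1% to 95.2% for Ifnar1-201 and 90.2% to 93.4% for Ifngr1-201. Jak2 was divided more evenly, with 62.0% to 72.4% on Jak2-204. Tyk2-203 held 84.0% ± 1.44 of the Tyk2 counts in WT and 88.0% ± 2.94 in Drp1 KO BMDMs (exact permutation test, n = 3 and 3, two-sided p = 0.2, adjusted p = 0.75). Ifngr2-201 was the only leading transcript whose share of counts did not overlap between the groups, at 99.5% ± 0.138 in WT and 98.9% ± 0.289 in Drp1 KO BMDMs (exact permutation test, n = 3 and 3, two-sided p = 0.1, adjusted p = 0.75). Of the forms of Jak2 and Tyk2, Jak2-204 and Tyk2-203 have 0 stretches of 31 bases of their own, so their shares rest on how kallisto divides reads that other forms also match. None of the 9 shares passed after adjustment, which the exact permutation test cannot reach with 3 libraries per group.

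Of the 7 other chains of the same receptor family 4 were tested, and edgeR, DESeq2 and limma-voom each called 0 of them, with 0 at an unadjusted p under 0.05 by edgeR. Of these, DESeq2 gave no adjusted p for Ifnlr1. Il10ra, the partner of IL10RB for IL-10, was at 222 to 292 CPM in WT and 223 to 271 CPM in Drp1 KO libraries. Il20rb was at 1.12 to 1.90 CPM in WT and 0.908 to 1.53 CPM in Drp1 KO libraries. Of 23 class I cytokine receptor chains that work through JAK1, JAK2 or TYK2, 1 passed, Il7r, which encodes the IL-7 receptor chain, or 4.35% against 3.36% of all genes tested. It was higher, at 304.5 to 316 CPM in WT and 453.5 to 555 CPM in Drp1 KO libraries (log2 fold change 0.65, SE 0.105, adjusted p = 0.00883, edgeR). The median log2 fold change of these 23 chains was -0.02. Il15ra (0.48, adjusted p = 0.263) and Il11ra1 (-0.52, adjusted p = 0.0729, edgeR) did not pass, while DESeq2 called Il11ra1 (adjusted p = 0.0132). With the replicate block 3 of the 23 passed, Il11ra1 (adjusted p = 0.00489) among them, where 12.0% of all genes did. Il7r was lost without WT library 2 (adjusted p = 0.0862), which left 0 called, and with WT library 3 dropped (0.0661).

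Of 8 genes for STAT factors, IRF9 and JAK3, 2 passed, both higher, and 6 did not, while 2.29% of all genes tested were called as higher. Stat2 rose from 43.0 to 48.4 CPM in WT to 85.98 to 133 CPM in Drp1 KO libraries, a log2 fold change of 1.33 (SE 0.152, adjusted p = 0.00124, edgeR). Irf9 rose as well (0.98, SE 0.115, adjusted p = 0.00149, edgeR), and for both genes every Drp1 KO library lay above every WT library. Stat4 did not pass, at 0.32 (SE 0.207, adjusted p = 0.515, edgeR). The median log2 fold change of the 8 was 0.10.

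Of 29 textbook interferon-stimulated genes, 25 passed and all 25 were higher, or 86.2% against the same 2.29% of all genes. The other 4 were also above 0 and had an unadjusted p under 0.05, and the median log2 fold change of the 29 was 1.91. Examples are Usp18, which removes ISG15 from proteins and holds back signalling at IFNAR2 (3.16, SE 0.207), Rtp4 (2.40, SE 0.165) and Oasl2 (2.23, SE 0.187), each with an adjusted p of at most 0.000322 (edgeR). The count was 22 to 26 with each library left out, and all 29 passed with the replicate block.

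Of 20 negative regulators of JAK-STAT signalling, 1 passed, Usp18, which is also among the interferon-stimulated genes, a share of 5.0% against 3.36% of all genes tested. Socs3, an inhibitor of cytokine receptors, was at 2.52 to 4.31 CPM in WT and 5.04 to 14.1 CPM in Drp1 KO libraries and did not pass with edgeR (1.32, SE 0.363, adjusted p = 0.0863) or limma-voom (adjusted p = 0.147) but did with DESeq2 (adjusted p = 0.00416), and Socs4 had 0.23 (adjusted p = 0.271). With the replicate block Socs3 passed (adjusted p = 0.0162), which made 2 of the 20, where 12.0% of all genes passed in that fit. The median of the 20 was -0.03. Of 21 genes for the sensors and factors that induce Ifnb1, 8 passed (38.1%) and all 8 were higher, Irf1, Irf7, Rigi, Ifih1, Dhx58, Zbp1, Tlr3 and Trim25. Several of these are themselves turned on by interferon, and Irf7 and Ifih1 are also on the list of interferon-stimulated genes. The RNA sensor Rigi rose from 47.3 to 63.5 CPM in WT to 128 to 182 CPM in Drp1 KO libraries (1.46, SE 0.151, adjusted p = 0.000712, edgeR). Ifih1 (1.06, adjusted p = 0.000903) and Zbp1 (2.24, adjusted p = 0.001) also rose. The median of the 21 was 0.33, and 5 of them passed without WT library 2 or with length-scaled counts. With the replicate block 10 of the 21 passed, with Tlr7 (adjusted p = 0.00164, edgeR) and Cgas (adjusted p = 0.0173, edgeR) added.

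**Figure D5:**
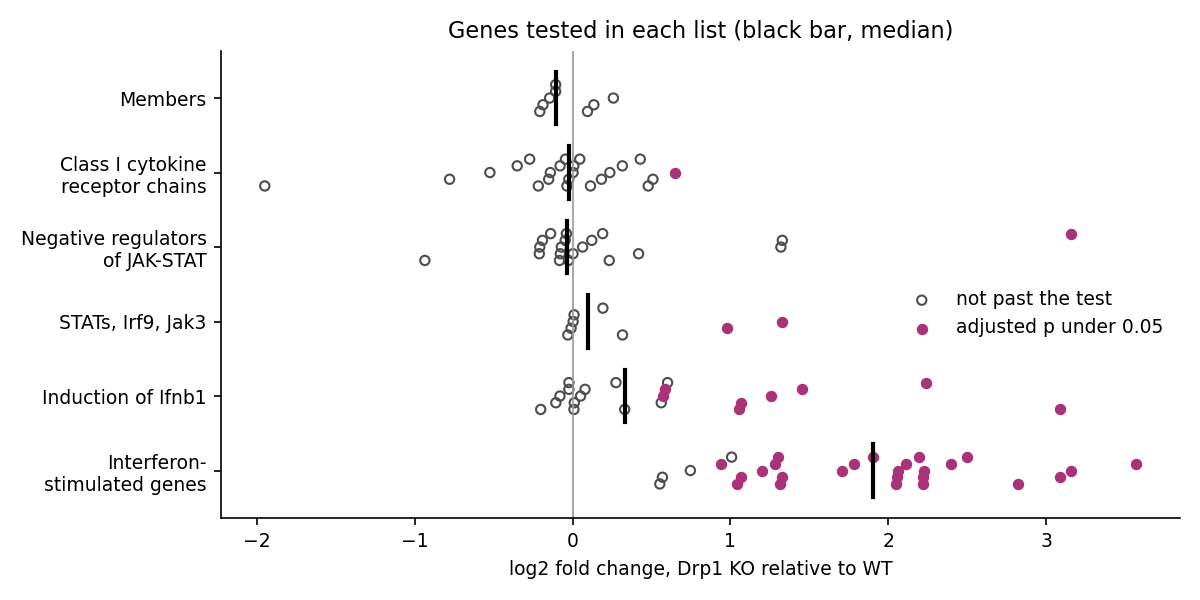
Log2 fold change of Drp1 KO relative to WT for each gene tested, by list; filled points have an adjusted p under 0.05 (edgeR), open points do not, and black bars are medians. The 8 receptor and kinase genes lie between -0.21 and 0.26, while the 29 interferon-stimulated genes all lie above 0 with a median of 1.91.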

How the data were processed

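The authors prepared poly(A) libraries, quantified reads with kallisto v0.46.1 against an index of Ensembl cDNA sequences of GRCm39 and deposited tables that list, by library, the estimated count, effective length and TPM of 116873 transcripts. These deposited estimated counts are not whole and are not scaled between libraries, and the deposited TPM values are scaled per library and length. The labels give 10% L929 medium and 2.1% oxygen, the paper's methods 20% and 2%.

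Transcripts were matched by identifier to GENCODE genes of GRCm39 (99.39% matched; 0.542% to 0.575% of a library's counts were left out). Gene totals of the estimated counts were rounded. edgeR 4.0.16 (R 4.3.3; TMM, at least 10 counts in total, quasi-likelihood test, no covariate) compared Drp1 KO with WT, and SE is the absolute log2 fold change over the square root of F. In simulated counts for this comparison over 18136 genes, 200 genes were changed 2-fold, drawn only from genes with higher counts. Of these 86.5% were recovered, with 15 false calls. This gives no recovery rate for differences as small as those of the receptor and kinase genes. Ratios and transcript shares were tested by exact permutation over libraries (SciPy 1.17.1), with Benjamini-Hochberg adjustment within each family. The interval of Ifnb1 and the floors cover counting error only, while the intervals of log2 fold changes come from the edgeR fit and include the spread between libraries. Sequences and motif positions were read from GRCm39.

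The groups share replicate numbers in the labels. Deviations from the group means correlated at 0.539, 0.218 and 0.352 between libraries of the same number over 12248 genes, and from -0.481 to 0.339 otherwise. WT library 2 correlated more with Drp1 KO library 3 (0.339) than with Drp1 KO library 2 (0.218). The correlations thus do not settle whether the numbers pair the libraries. The tests given first have no block. The fit with the block is an alternative whose value stands beside a result where it changes the call. No library was a copy of another (chi-square per degree of freedom at least 9.50).

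Named genes were the 9 members, Dnm1l, the 3 genes with the smallest p among those with a mean of at least 1 CPM in each of the 13 lists, ligand genes above 3 counts in a library, and the 3 genes most like Jak2, the member with the smallest p, and most like Ifnar1; other list genes named were chosen after their values were seen. The members and lists were chosen with earlier results of these data known. Alternatives were DESeq2 1.42.0, limma-voom (limma 3.58.1), other scalings, filters and counts, the replicate block, and leaving out each library. Proteins were not analysed here. In the lists, 3 genes are not reported here.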

Additional observations from a re-analysis of the deposited data

How the results depend on the processing

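The direction of the log2 fold change of each of the 8 tested genes and of Dnm1l held under all 15 alternatives. The replicate block changed 1 call among these genes: Jak2 passed (0.26, adjusted p = 0.0460, edgeR), so that 1 of the 8 was called where 0 were without it. The number of all genes called was 621 with edgeR, 1155 with DESeq2, 1065 with no filter beyond 1 count and 2212 with the replicate block. Leaving out a library gave 181 to 904. It was lowest, at 181, when WT library 2 was dropped, and 217 for WT library 3, 268 for Drp1 KO library 2 and 348 for Drp1 KO library 3. The cause was not tested. The number of the 8 genes past the study's criteria lay between 0 and 1 when a library was dropped, the 1 being Ifnar2 without Drp1 KO library 1. The number of libraries with Ifnb1 over the floor ran from 0 to 1, with 0 without Drp1 KO library 3. Differences that changed sign with a library left out were small. The log2 ratio of Ifnar1 to Ifnar2 (0.07) ran from -0.057 to 0.21. In percentage points, the share of Ifnar1-201 (0.354) ran from -0.954 to 1.60, that of Ifnar2-203 (-0.473) from -1.06 to 0.00023, that of Jak1-201 (-0.120) from -0.323 to 0.0936 and that of Jak2-204 (-1.02) from -3.09 to 2.10. For the ratios, an exact sign-flip test over the 3 pairs cannot go below p = 0.25 and leaves the mean difference as it is, so it adds no check. As shares of TPM in place of counts, the groups no longer overlapped for Tyk2-203 (63.5% ± 1.51 in WT and 71.7% ± 5.001 in Drp1 KO), for Ifnar2-203 (95.6% ± 0.103 and 94.7% ± 0.759) and for both short forms of Ifnar2 together (each exact permutation test, n = 3 and 3, two-sided p = 0.1, adjusted p = 0.225 over 9 shares). At this depth a level of Ifnb1 under about 0.1 CPM could not be seen in a library.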
